A study of Bos taurus with 14 samples.

Results

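The transcripts of αs1-casein (CSN1S1, ENSBTAG00000007695), αs2-casein (CSN1S2, ENSBTAG00000005005) and κ-casein (CSN3, ENSBTAG00000039787) were followed in the RNA of bovine milk fat globules. These 3 genes were chosen by identifier, as the caseins that share a gene cluster with β-casein (CSN2), out of 36075 identifiers in the count table, and all 3 passed the filter on low counts that left 12320 genes for testing. Milk fat globules are lipid droplets released by the secretory cells of the udder, and they carry some of the cytoplasm and RNA of those cells. The milk came from 14 purebred Holstein cows of a commercial farm that shared rations and management, 7 homozygous for the A1 form of β-casein (A1A1) and 7 for the A2 form (A2A2). Each cow gave 1 library and is named by genotype and sample number. The 2 groups differ in the genotype by which they were formed, and the labels give no age, parity, stage of lactation or genotype at any other casein gene. RNA was extracted from frozen milk, so cells shed into milk may also have contributed.

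Caseins are the main proteins of milk and are packed with calcium phosphate into micelles in the secretory pathway of the mammary epithelial cell. The αs1-, αs2- and β-caseins bind calcium through clusters of phosphorylated serines. κ-casein sits on the micelle surface, carries sugar chains, keeps the micelles apart and is the casein cut by chymosin when milk clots. The genes are read together in lactation under prolactin and glucocorticoids, largely through the factor STAT5. In the reference gene order of the assembly ARS-UCD2.0 they lie on chromosome 6. Of the 8 protein-coding genes from CSN1S1 to CSN3, CSN1S1 is the first, CSN2 the second, CSN1S2 is number 5 and CSN3 is number 8. HSTN and STATH lie between CSN2 and CSN1S2, and PRR27 and ODAM lie between CSN1S2 and CSN3. The A1 and A2 forms of β-casein differ by a histidine in A1 and a proline in A2.

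Libraries held 16116849 to 22994197 counts, so that counting error is small beside the differences between cows. The lowest casein level of the series, CSN1S2 in A1A1 9, still rested on 34530 counts. Among all genes CSN1S1 had rank 2 by total count, CSN3 rank 5 and CSN1S2 rank 9. Library A1A1 9 stood apart. A group of 12 abundant genes with the lengths of mitochondrial protein and rRNA genes took 51.8% of its counts. In the other A1A1 libraries these genes took 12.4% to 33.0%, and in A2A2 5.12% to 19.6%. The 3 caseins together took 1.031% of the counts of A1A1 9 but 7.55% to 14.5% in the rest of its genotype. A suffix _2 of unstated meaning follows the descriptions of 4 libraries (10 and 15 of A1A1, 5 and 13 of A2A2), and the main comparisons are also given within the libraries with and without it. The CPM values of A1A1 3 are scaled up the most, since its TMM factor of 0.636 is below the 0.907 to 1.21 found elsewhere. Identifiers are not paired with names in the files or the reference table, so markers of epithelial cells and leucocytes, and the other genes of the lactation pathway, were not matched and have no values here.

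κ-casein transcripts had a higher mean level in A2A2 than in A1A1 libraries, whereas those of αs1- and αs2-casein overlapped widely between the genotypes. Levels are given as CPM, the usual count normalised for library size, with TMM scaling. CSN3 had 21516 ± 10662 CPM in A1A1 and 47070 ± 16411 in A2A2 (SD, n = 7 cows a genotype), CSN1S1 62402 ± 33047 and 72510 ± 18819, and CSN1S2 22516 ± 13117 and 25646 ± 8034. The difference for CSN3 did not pass the test over all genes. In bulk RNA, fewer cells of a type and less RNA per cell cannot be told apart.

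CSN3 encodes κ-casein, the stabiliser of the micelle surface. In A1A1 its CPM ran from 2910 in A1A1 9, with a median of 20616, to 36280 in A1A1 3. In A2A2 it ran from 20529 in A2A2 4, with a median of 50853, to 68935 in A2A2 5. Of the A2A2 libraries, 5 of 7 lay above every A1A1 library, and A2A2 4 and A2A2 11 (30736 CPM) lay within the A1A1 range. The fitted log2 fold change was 1.13 with a standard error of 0.421, a 2.19-fold higher level in A2A2, with an unadjusted p of 0.0165 and an adjusted p of 0.856 over all genes in edgeR's quasi-likelihood test. In that test 0 of 12320 genes (0%) were called at an adjusted p of 0.05, DESeq2 called 5 and limma voom 0. At an unadjusted p under 0.05 edgeR gave 412 genes (3.34%), of which 146 (1.19% of those tested) were higher in A2A2, and CSN3 was 1 of these. On mean log2 CPM the difference was 1.33 with a 95% interval of 0.36 to 2.46 (exact permutation p = 0.00758, two-sided), and adjusted over all genes that p was 0.826. By this test 3.25% of all genes had an unadjusted p under 0.05, and 1.7% were also higher in A2A2. Without A1A1 9 the mean difference was 0.89 and the fitted one 0.94. Among the 10 libraries without the suffix the mean difference was 1.31 (exact permutation p = 0.0556), and in the 4 with it 1.38, where 2 against 2 cows were not tested by permutation. The edgeR fits within these libraries gave log2 fold changes of 0.99 (adjusted p = 0.973) and 1.36 (adjusted p = 0.316). These 2 fits called 0 of 12356 and 25 of 12722 genes, CSN3 not among them.

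CSN1S1 encodes αs1-casein, a calcium-binding casein and the most abundant of the 3 transcripts. Its CPM in A1A1 ran from 6399 in A1A1 9, with a median of 74405, to 99620 in A1A1 3. In A2A2 it ran from 54772 in A2A2 6, with a median of 67494, to 111527 in A2A2 1. The 2 ranges overlapped, with 1 A2A2 library above all A1A1 libraries and 3 A1A1 libraries (2, 8 and 9) below all A2A2 libraries. The fitted log2 fold change was 0.22 with a standard error of 0.428 (edgeR, adjusted p = 0.907), and the mean log2 difference was 0.54, with a 95% interval of -0.41 to 1.73 (exact permutation p = 0.406). The direction differed between summaries, since the difference between medians of log2 CPM was -0.14. Without A1A1 9 the fitted value was 0.017 and the mean log2 difference 0.058. The mean log2 difference was 0.86 among the 10 libraries without the suffix (exact permutation p = 0.278) and -0.23 in the 4 with it.

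CSN1S2 encodes αs2-casein, the most heavily phosphorylated of the bovine caseins. In A1A1 its CPM ran from 2057 in A1A1 9, with a median of 25789, to 40709 in A1A1 3, and in A2A2 from 11276 in A2A2 6, with a median of 24192, to 36141 in A2A2 17. By CPM all 7 A2A2 libraries lay within the A1A1 range, and A1A1 3 lay above them. By share of all counts, which has no TMM scaling, 2 A2A2 libraries lay above every A1A1 library, and A1A1 3 had 2.59%. By share of the counts outside the mitochondrial-length genes, 0 A2A2 libraries lay above every A1A1 library. The fitted log2 fold change was 0.19 with a standard error of 0.456 (edgeR, adjusted p = 0.922), and the mean log2 difference was 0.52, with a 95% interval of -0.58 to 1.817 (exact permutation p = 0.478). Its sign was not stable. Without A1A1 9 the fitted value was -0.014 and the mean log2 difference 0.016, with 1 surrogate variable the fitted value was -0.0048, and the medians of log2 CPM differed by -0.092. The mean log2 difference was 0.78 among the 10 libraries without the suffix (exact permutation p = 0.405) and -0.12 in the 4 with it. The intervals for CSN1S1 and CSN1S2 include differences as large as the one measured for CSN3.

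**Figure D1:**
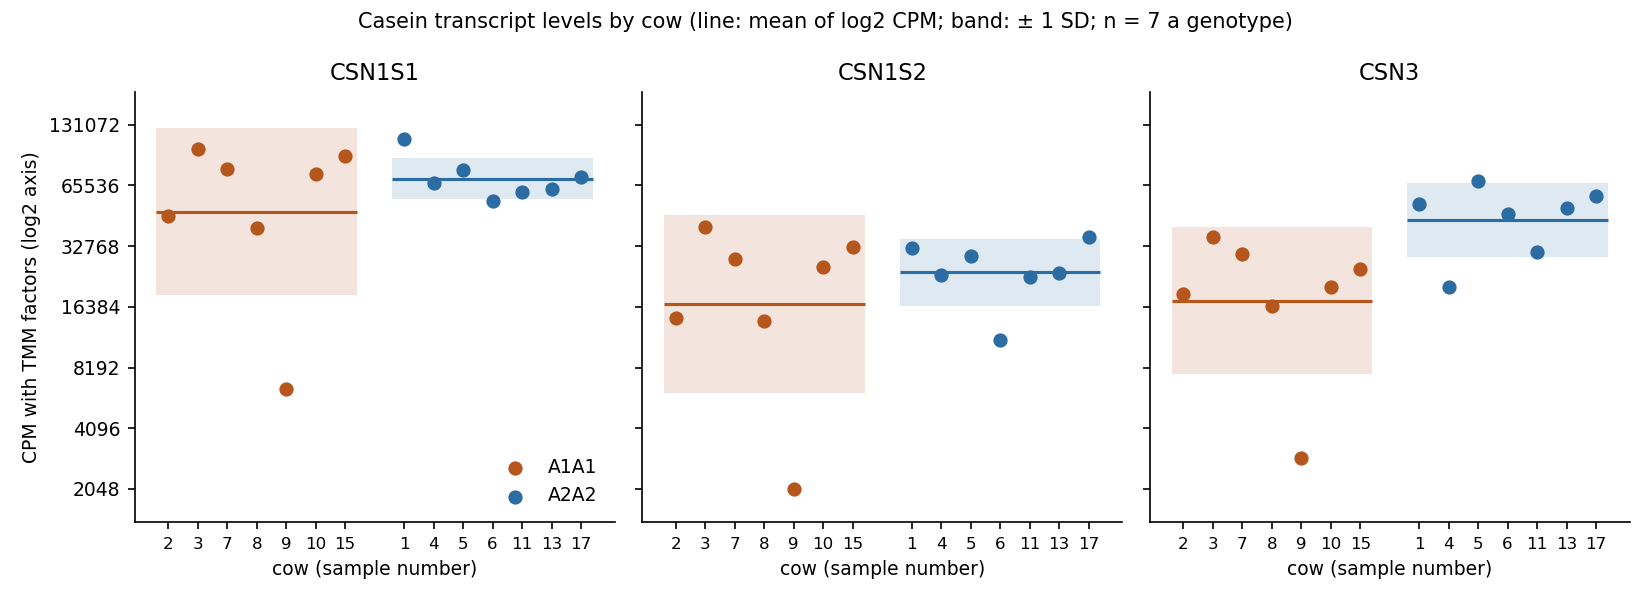
Level of each casein transcript in every cow, as CPM on a log2 axis, with A1A1 cows in orange and A2A2 cows in blue. Lines are means of log2 CPM and bands are 1 SD (n = 7 a genotype). For CSN3, 5 of 7 A2A2 cows lie above all A1A1 cows, and A1A1 9 is the lowest cow for all 3 genes.

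As a share of all counts, κ-casein transcripts made up 1.97 ± 0.852% in the A1A1 cows and 4.97 ± 1.57% in the A2A2 cows (SD). The A1A1 shares ran from 0.264% in A1A1 9 (exact 95% binomial interval 0.262 to 0.266%, counting error only) through a median of 2.26% to 2.95% in A1A1 7. Those of A2A2 ran from 2.48% in A2A2 4 through a median of 5.24% to 7.03% in A2A2 5. A2A2 4 was again the library within the A1A1 range, and the other 6 lay above all A1A1 libraries. The share differed by 2.997 percentage points, with a 95% interval of 1.51 to 4.46 (exact permutation p = 0.00117; adjusted over all genes 0.572). By the same measure 7.92% of all genes had an unadjusted p under 0.05 and 7.26% were also higher in A2A2. CSN1S1 took 5.77 ± 2.91% and 7.72 ± 1.67% (exact permutation p = 0.152), and CSN1S2 2.06 ± 1.07% and 2.74 ± 0.797% (exact permutation p = 0.217). Among the 10 libraries without the suffix the shares of CSN1S1, CSN1S2 and CSN3 differed by 3.12, 1.00 and 2.58 points (exact permutation p = 0.0635, 0.175 and 0.0159), and in the 4 with it by -0.97, -0.13 and 4.04 points. The summed share of the 3 caseins was 9.80 ± 4.76% for A1A1 and 15.4 ± 2.94% for A2A2. These differ by 5.63 points, or by 4.16 without A1A1 9.

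The 12 mitochondrial-length genes moved the other way, with 26.7 ± 12.8% of counts in A1A1 and 12.1 ± 5.20% in A2A2. Their definition was made with results of these data known, so this difference is given as a description only. Shares of 1 library are tied to each other. Counted over the remaining counts only, CSN3 took 2.57 ± 0.973% in A1A1 and 5.65 ± 1.71% in A2A2, with 6 of 7 A2A2 libraries above all A1A1 libraries. The difference was 3.08 points (exact permutation p = 0.00233), over a smaller total. On the log2 scale the CSN3 difference was 1.52 with library totals as the denominator and 1.24 with totals without these genes (exact permutation p = 0.00117 and 0.00291). It was thus smaller outside the mitochondrial-length genes and of the same direction. Over the same counts CSN1S1 took 7.48 ± 3.52% and 8.77 ± 1.69%, and CSN1S2 2.66 ± 1.28% and 3.10 ± 0.819%.

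The ratio of 2 transcripts within a library does not depend on library size or on its scaling factor, and it parted κ-casein from the αs-caseins. Relative to CSN1S1, CSN3 was 1.72-fold higher in A2A2 than in A1A1 cows (95% interval 1.19 to 2.47), and relative to CSN1S2 it was 1.75-fold higher (1.13 to 2.74). The ratio of CSN1S1 to CSN1S2 had nearly the same mean in both genotypes, with a fold of 1.02 and an interval of 0.812 to 1.29. The 3 ratios were each tested by exact permutation over the 3432 splits of 14 cows into 7 and 7, and p-values were adjusted over the 3.

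The log2 ratio of CSN1S1 to CSN3 counts was 1.46 ± 0.287 among A1A1 and 0.68 ± 0.586 among A2A2 cows (SD). In A1A1 it was 1.86 in cow 15, 1.85 in cow 10, 1.46 in cow 3, 1.39 in cow 7, 1.28 in cow 8, 1.27 in cow 2 and 1.14 in cow 9. In A2A2 it was 1.72 in cow 4, 1.07 in cow 1, 0.98 in cow 11, 0.31 in cows 13 and 17, 0.21 in cow 6 and 0.18 in cow 5. Thus 6 of 7 A2A2 cows lay below every A1A1 cow, of which 4 had a log2 ratio between 0.18 and 0.31, and A2A2 4 lay near the top of the A1A1 range. The lowest A1A1 cow was A1A1 9, at 1.14, below the 1.27 to 1.86 of the other A1A1 cows and within the A2A2 range. The difference of -0.78 had a 95% interval of -1.31 to -0.25 (exact permutation p = 0.0134, adjusted p = 0.0253 over the 3 ratios, two-sided). The call was lost between medians (-1.07, adjusted exact permutation p = 0.105) and in edgeR with CSN3 counts as library scale (-0.70, adjusted p = 0.213 over all genes). In that edgeR fit 8915 of 11972 genes were called, but CSN1S1 and CSN1S2 were not. Without A2A2 4 the difference was -0.95 (adjusted exact permutation p = 0.00175). Without A1A1 10 or without A1A1 15 the adjusted p was 0.0524 by the same test, with differences of -0.72 and -0.71.

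The log2 ratio of CSN1S2 to CSN3 was -0.055 ± 0.348 in A1A1 and -0.86 ± 0.708 in A2A2. The A1A1 cows ran from -0.50 in cow 9, with a median of -0.089, to 0.37 in cow 15. The A2A2 cows ran from -2.07 in cow 6, with a median of -0.72, to 0.19 in cow 4, and 5 of 7 lay below every A1A1 cow. The difference was -0.80, with a 95% interval of -1.46 to -0.17 (exact permutation p = 0.0169, adjusted p = 0.0253 over the 3 ratios). This call too was lost between medians (-0.63, adjusted exact permutation p = 0.122) and in edgeR with CSN3 counts as library scale (-0.70, adjusted p = 0.206 over all genes). Without A1A1 10 or without A1A1 15 the adjusted p was again 0.0524 by the exact test, with differences of -0.74 and -0.73, and without A2A2 6 the difference was -0.60.

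The log2 ratio of CSN1S1 to CSN1S2 was 1.52 ± 0.125 in A1A1 and 1.54 ± 0.403 in A2A2. In A1A1 it kept within 1.29 (cow 3) to 1.68 (cow 2), A1A1 9 included at 1.64. In A2A2 it ran from 0.99 in cow 17 through a median of 1.42 to 2.28 in cow 6. The difference was 0.022, with a 95% interval of -0.30 to 0.37 (exact permutation p = 0.890). Cow A2A2 6, which had the lowest CSN1S2 level among the A2A2 cows and a CSN3 level (47480 CPM) near their mean, set both the highest CSN1S1 to CSN1S2 and the lowest CSN1S2 to CSN3 ratio. Without A2A2 6 the difference was -0.10, and the spreads of the 2 genotypes were not compared by a test.

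Values within the libraries with and without the suffix lay apart for both ratios with κ-casein. Among the 10 without it the CSN1S1 to CSN3 ratio differed by -0.45 (exact permutation p = 0.183, n = 5 each) and the CSN1S2 to CSN3 ratio by -0.53 (exact permutation p = 0.222), so neither passed within these libraries. Among the 4 with it the differences were -1.61 and -1.50 (2 cows each, no permutation test). There the 2 A1A1 cows had the highest CSN1S1 to CSN3 ratios of all, and A2A2 5 and 13 were among the 4 lowest. The difference between these sets, and the part of the suffix in it, was not tested.

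Set against all other genes, a rise relative to CSN1S1 was uncommon. With CSN1S1 as the denominator, 195 of 12319 genes (1.58%) had an exact permutation p under 0.05. Of these, 14 (0.114% of all) were higher in A2A2, CSN3 among them, and 3 higher genes, CSN3 included, had a p as small as its own. Adjusted over all genes the exact permutation p of CSN3 was 0.894. With CSN1S2 as the denominator 126 genes (1.02%) had an exact p under 0.05 and 11 (0.0893%) were higher in A2A2, again with CSN3 among them (adjusted over all genes, 0.916). With CSN3 as the denominator the picture was reversed. Relative to CSN3, 7614 of 12319 genes (61.8%) had an exact p under 0.05, and 1 of them (0.00812% of all) was higher in A2A2. CSN1S1 and CSN1S2 were thus 2 of many genes lower in A2A2 relative to CSN3, with places 2858 and 3639 from the smallest exact p. In edgeR with CSN3 counts as library scale, 8915 of 11972 genes were called, and 1 of them was higher in A2A2. CSN1S1 and CSN1S2 were not called there, with places 11316 and 11296 from the smallest p-value. With CSN1S1 or CSN1S2 counts as the scale, 0 of 12348 and 0 of 12578 genes were called.

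**Figure D2:**
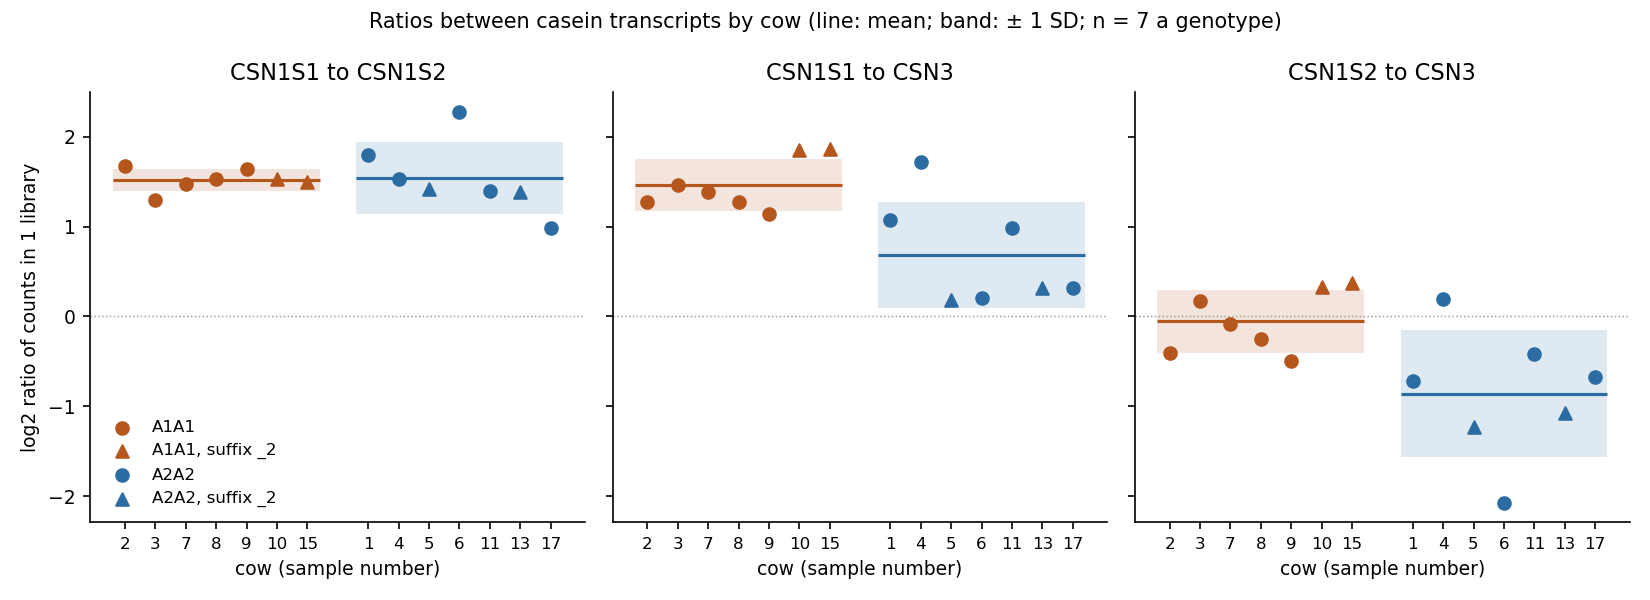
log2 ratio of the counts of 2 casein transcripts in each cow, with A1A1 in orange and A2A2 in blue. Triangles are the libraries with the suffix _2, lines are means and bands are 1 SD (n = 7 a genotype). The CSN1S1 to CSN3 ratio is below every A1A1 cow in 6 of 7 A2A2 cows, whereas the CSN1S1 to CSN1S2 ratio has means of 1.52 and 1.54.

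Per length of transcript, αs1-casein was the most abundant of the 3 in all 14 libraries. The deposited FPKM values (fragments per length and library size) imply lengths of 797 bases for CSN1S1, 1025 for CSN1S2 and 1192 for CSN3. The FPKM of CSN1S1 was 77791 ± 41087 for A1A1 and 91227 ± 23621 for A2A2, that of CSN1S2 21820 ± 12641 and 25101 ± 7913, and that of CSN3 17914 ± 8807 and 39613 ± 13880 (SD, 7 cows each). CSN1S1 was on average 3.70 ± 0.312 times as high as CSN1S2 in A1A1 and 3.88 ± 1.19 times in A2A2. It was 4.20 ± 0.873 times as high as CSN3 in A1A1 and 2.59 ± 1.19 times in A2A2.

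The order of the other 2 transcripts varied. CSN1S2 was above CSN3 in 4 of 7 A1A1 libraries and in A2A2 4, and CSN3 was above CSN1S2 in the other 3 A1A1 and in 6 of 7 A2A2 libraries. In A1A1 the FPKM ratio of CSN3 to CSN1S2 was 0.916 ± 0.219 (SD), from 0.667 in cow 15 to 1.22 in cow 9. In A2A2 it was 1.74 ± 0.929, from 0.754 in cow 4 to 3.62 in cow 6. Whether the 2 levels differed within a genotype was not tested.

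Of the summed FPKM of the 3 genes, CSN3 made up 16.2 ± 2.70% in A1A1 and 25.3 ± 7.05% in A2A2. The A1A1 cows ran from 12.6% in cow 15 to 19.6% in cow 9. In A2A2 it was 13.81% in cow 4, 20.7% in cows 1 and 11, 27.9% in cow 17, 29.3% in cow 13, 31.3% in cow 5 and 33.3% in cow 6. All A2A2 cows but cow 4 were therefore above the A1A1 range. CSN1S1 made up 65.9 ± 1.95% and 58.7 ± 6.13%, and CSN1S2 17.9 ± 1.56% and 16.02 ± 3.57%. The percentages sum to the same total in each library, so a higher one lowers the others.

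**Figure D3:**
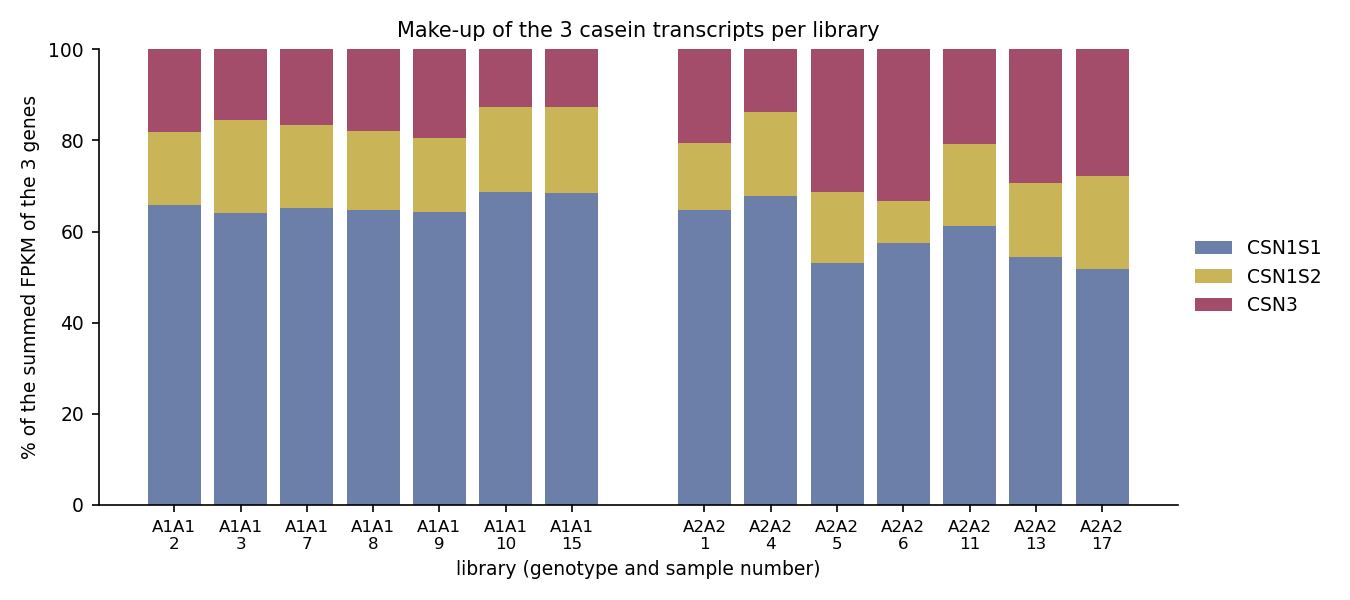
Make-up of the 3 casein transcripts in each library, as percent of their summed FPKM, with bars that start at 0 and stack to the whole. CSN3 (top) takes 12.6% to 19.6% in A1A1 cows and 20.7% to 33.3% in 6 of 7 A2A2 cows, with 13.81% in A2A2 4.

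Between cows, αs1- and αs2-casein transcripts had a higher correlation with each other than either had with κ-casein. Over the 14 cows log2 CPM of CSN1S1 and CSN1S2 had a Pearson r of 0.97 (permutation p = 2e-05, adjusted p = 6e-05 over the 3 pairs) and a Spearman rho of 0.89 (permutation p = 3e-05). Without the 2 cows farthest from the median, A1A1 9 and A1A1 8, r was 0.83 (permutation p = 0.00063). For CSN1S1 and CSN3, r was 0.85 (permutation p = 0.00444, adjusted p = 0.00666) and rho 0.54 (permutation p = 0.0478). Without A1A1 9 and A1A1 8, r was 0.27 (permutation p = 0.391), and without A1A1 9 alone it was 0.45 (permutation p = 0.125), so the pooled relation rested on A1A1 9. Without A1A1 8 alone it was 0.85. For CSN1S2 and CSN3, r was 0.82 (permutation p = 0.00731, adjusted p = 0.00731) and rho 0.59 (permutation p = 0.0281). Without A1A1 9 and A2A2 6, r was 0.65 (permutation p = 0.0225), but without A1A1 9 alone it was 0.38 (permutation p = 0.206). The differences between the 3 correlations were not tested, and CPM values of 1 library share its total and scaling factor.

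Within A1A1 all 3 transcripts moved together, with or without the extreme cow. In the 6 cows other than A1A1 9, r was 0.99 for CSN1S1 and CSN1S2, 0.87 for CSN1S1 and CSN3 and 0.89 for CSN1S2 and CSN3 (exact permutation p = 0.00139, 0.0333 and 0.0208). Within the 7 A2A2 cows r was 0.68, 0.33 and 0.25 for the same pairs (exact permutation p = 0.128, 0.454 and 0.551), and rho was 0.86, 0.64 and 0.75 (exact permutation p = 0.0238, 0.139 and 0.0663, or 0.0714, 0.139 and 0.0994 adjusted over the 3 pairs). Without A2A2 6, r was 0.62, 0.42 and 0.70 (exact permutation p = 0.161, 0.410 and 0.129). No test of the difference between the genotypes was made.

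**Figure D4:**
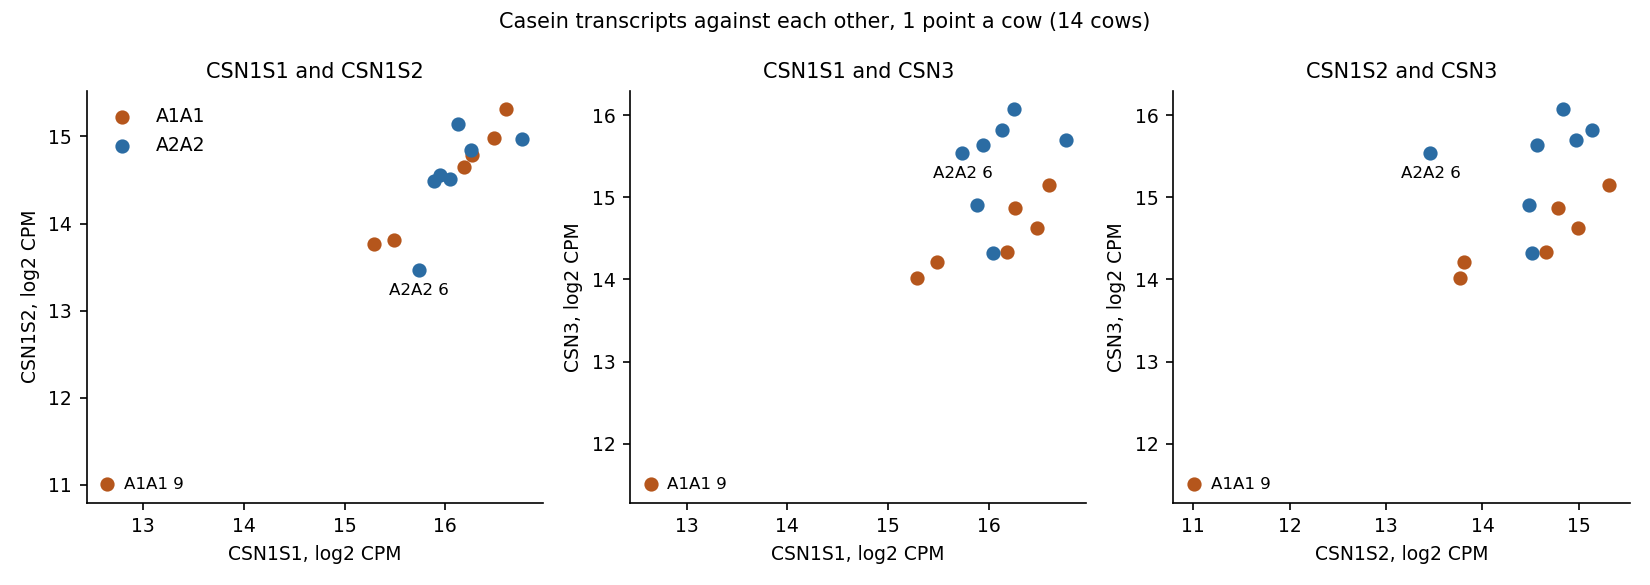
log2 CPM of each pair of casein transcripts, with 1 point a cow (14 cows), A1A1 in orange and A2A2 in blue. CSN1S1 and CSN1S2 lie close to a line in A1A1, A2A2 6 and A2A2 17 lie off it on opposite sides, and against CSN1S1 most A2A2 cows have more CSN3 than A1A1 cows.

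The spread of casein transcripts between cows depended on A1A1 9. The CPM of CSN1S1 spanned a 17.4-fold range over the 14 cows, that of CSN1S2 a 19.8-fold and that of CSN3 a 23.7-fold range. Without A1A1 9 these ranges were 2.78-, 3.61- and 4.17-fold. In A1A1 the SD of log2 CPM was 1.38 for CSN1S1, 1.46 for CSN1S2 and 1.21 for CSN3, against a median of 0.59 over the 50 most abundant genes. Without A1A1 9 it was 0.54, 0.63 and 0.43, against a median of 0.53. In A2A2 it was 0.33, 0.55 and 0.60, against a median of 0.55. With A1A1 9 left out the caseins had places from 14 to 38 of 50 in either genotype, counted from the most variable.

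The genes whose levels followed the caseins most closely over the 14 cows were sought among genes with a mean of at least 10 CPM, by the Pearson correlation of log2 CPM, given as a description. CSN1S1 was the gene most like CSN1S2 of all 5879 compared (r = 0.97), and CSN1S2 had place 4 for CSN1S1. CSN3 had only place 121 for CSN1S1 (r = 0.85) and place 155 for CSN1S2 (r = 0.82). Without A1A1 9 these places were 8, 13, 613 and 727. Outside the 3 caseins, CSN1S1 was followed most closely by the genes of abundance ranks 448, 3 and 11 (r = 0.99, 0.98 and 0.97; 0.93, 0.88 and 0.81 without A1A1 9). The genes of ranks 3 and 11, 1338 and 983 bases long, are themselves among the most abundant, with means of 67040 and 16442 CPM. CSN1S2 was followed by the genes of ranks 448, 82 and 4618 (r = 0.96, 0.95 and 0.95; 0.83, 0.78 and 0.86 without A1A1 9). CSN3 was followed by another set, of ranks 608, 1642 and 1633, with r of 0.94, 0.94 and 0.93 (0.82, 0.81 and 0.78 without A1A1 9).

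The fitted direction for κ-casein was the same in all settings run. That of αs1-casein was the same in the 30 alternative settings but not in the separate fit on the 4 libraries with the suffix. That of αs2-casein was reversed in 2 of the 30 settings and in the separate fit. Over 30 alternative settings the fitted log2 fold change of CSN3 ran from 0.87, with 1 surrogate variable, to 1.34, by limma on log2(FPKM + 0.1), with adjusted p-values over all genes from 0.447 to 1, so no setting called it. That of CSN1S1 ran from 0.017 to 0.56 and that of CSN1S2 from -0.014 to 0.54. With library totals in place of TMM factors the values were 1.33, 0.42 and 0.41 for CSN3, CSN1S1 and CSN1S2, while the median of all genes moved to 0.18. The separate fit on the 4 libraries with the suffix lay outside these ranges, at 1.36 for CSN3, -0.26 for CSN1S1 and -0.15 for CSN1S2.

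**Figure D5:**
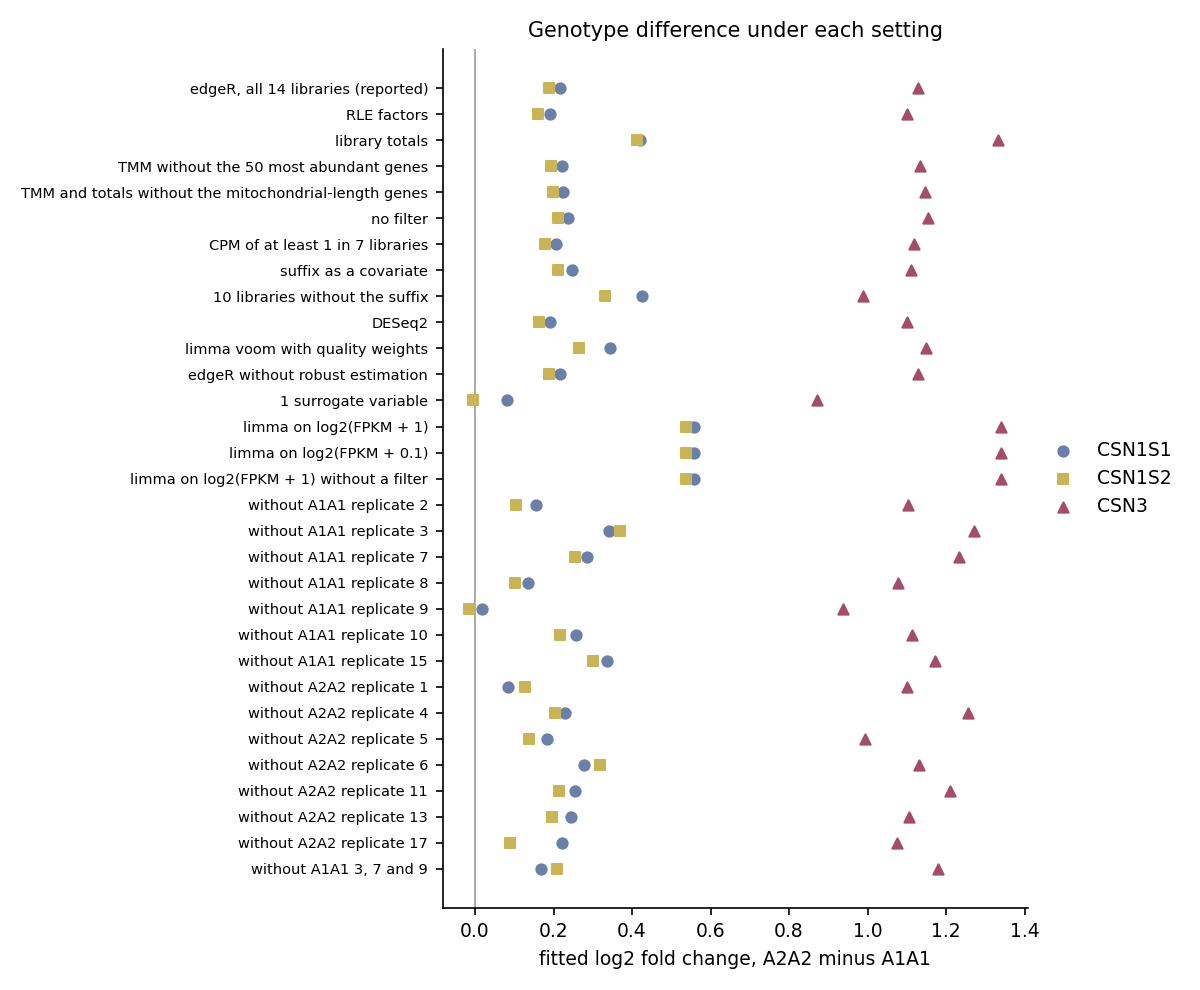
Fitted log2 fold change (A2A2 minus A1A1) of the 3 transcripts in the reported fit and under 30 alternative normalisations, filters, tools and sets of libraries. The fit on the 4 libraries with the suffix alone is not drawn. CSN3 lies between 0.87 and 1.34 in the settings drawn, and CSN1S1 and CSN1S2 between -0.014 and 0.56.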

How the data were processed

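For 36075 Ensembl cattle identifiers in 14 libraries, the authors deposited unscaled counts and also FPKM. FastQC 0.11.9, cutadapt 4.0, STAR and edgeR 4.0.16 are named in the submitters' processing notes, without the role of each. Not given in the sources used here: genome build, annotation, counting tool and strand setting. For the deposited FPKM, counts divided by FPKM gave 1 length per gene up to 1 factor per library. A common scale was set so that all 21104 lengths were whole within 0.05 bases, and the library factors lie within 3.08% of the TMM factors computed here. Libraries are paired-end mRNA libraries, per the labels' protocols.

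The counts of 12320 genes that passed filterByExpr were fitted with edgeR 4.0.16 under R 4.3.3 (TMM, robust quasi-likelihood, fold changes as A2A2 over A1A1). These genes held 99.9% of all counts. P-values were Benjamini-Hochberg adjusted, with a threshold of 0.05. Single values per cow were compared by exact permutation of the difference in means (smallest p 0.000583), with intervals from inverting that test. Ratios are log2 ratios of counts. Tests over all genes used a pseudocount of 0.5, and correlations 100000 permutations, exact for 7 or fewer cows. Each cow is 1 replicate, and the labels state no pairing. The code was tested on simulated data. Alternatives used limma 3.58.1, DESeq2 1.42.0 and sva 3.50.0.

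The identifiers were paired with gene names by the rule that chose the 3 genes. The reference table holds 0 Ensembl identifiers, so planned lists of lactation genes and cell type markers were not run, and other genes are named by abundance rank. The genes named are the 3 caseins and, for each, the 3 genes of highest correlation. The 12 mitochondrial-length genes are, among the 50 genes with the most counts, those whose length equals that of 1 of the 15 mitochondrial protein and rRNA genes of the reference (1 gene a length, that with the most counts). Genes, lists and tests were chosen with earlier results of these data known. The fits without A1A1 3, 7 and 9, the ratios without A1A1 9 and A2A2 6 and the edgeR fit on a casein's counts were chosen after seeing the data, as were the tests of each gene's share of counts and of its ratio to a casein over all genes.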

Additional observations from a re-analysis of the deposited data

Results flagged for a closer look

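In 20 sets of 7 values (CPM, shares of counts and log2 ratios of the 3 caseins within each genotype), 1 library lay far from the other 6 by Dixon's test, where chance gives about 1 in 20 sets. A2A2 1 had 111527 CPM of CSN1S1, the αs1-casein gene, and the next A2A2 library 78290. Without A2A2 1 the fitted log2 fold change of CSN1S1 was 0.083 in place of 0.22. A1A1 9 was not found by this test in these 20 sets, although it had the lowest CPM of all 3 genes. Unscaled counts, log2 CPM and shares outside the mitochondrial-length genes were not among the sets, so the libraries found depend on the measures searched.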

How the results depend on the processing

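No paired analysis was made, because each cow has 1 genotype and the labels state no pairing. The number of genes called over all 14 libraries was 0 in edgeR, 5 in DESeq2 and 1 by limma on log2(FPKM + 1). Leaving out 1 library gave 0 to 0 in edgeR. The separate edgeR fit on the 4 libraries with the suffix (2 cows each) called 25 of 12722 genes, 24 of them lower in A2A2. CSN3, CSN1S1 and CSN1S2 were not called there. The fitted log2 fold change of CSN1S2 was -0.0048 with 1 surrogate variable; leaving out 1 library gave -0.014 to 0.37 for CSN1S2, 0.017 to 0.34 for CSN1S1 and 0.94 to 1.27 for CSN3. Between medians, the log2 CPM difference was -0.14 for CSN1S1 and -0.092 for CSN1S2, and the ratios of CSN1S1 to CSN1S2, CSN1S1 to CSN3 and CSN1S2 to CSN3 differed by -0.11, -1.07 and -0.63 (adjusted exact permutation p = 0.301, 0.105 and 0.122). Among the 10 libraries without the suffix the last 2 ratios differed by -0.45 and -0.53, with fewer cows, and the log2 CPM of CSN3 by 1.31 (exact permutation p = 0.0556). With a casein's counts as library scale in edgeR, CSN1S1 and CSN1S2 relative to CSN3 differed by -0.70 and -0.70 (adjusted p = 0.213 and 0.206 over all genes, of which 8915 of 11972 were called). The cause of these changes was not tested. Without A1A1 9 and A2A2 6 the ratio of CSN1S1 to CSN1S2 differed by -0.081. Leaving out 1 library gave -0.10 to 0.11 for this ratio, -0.95 to -0.70 for CSN1S1 to CSN3 and -0.98 to -0.60 for CSN1S2 to CSN3. It gave 0.89 to 1.51 for the log2 CPM of CSN3, 2.65 to 3.41 points for its share, 0.45 to 0.87 for the correlation of CSN1S1 with CSN3 and 0.38 to 0.90 for that of CSN1S2 with CSN3, each correlation lowest without A1A1 9. Depth limited none of these values beside the spread between cows, with at least 34530 counts behind each level.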
